A study of Arabidopsis thaliana with 12 samples.

Results

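The genes described here are 10 loci of Arabidopsis thaliana that are widely used as readouts of drought and cold: RD29A, RD29B, RAB18, KIN1, KIN2, COR15A, COR15B, COR47, HB7 and HB12. They were chosen by locus, with no measured value in the rule but with earlier results of these data known. They are 10 of the 38288 genes in the deposited count table. All 10 had counts, and all 10 passed the filter on low counts that left 20398 genes for testing. RD29B passed it through its 26 d libraries, as it had at most 10 counts in any 14 d library. By locus, RD29A is AT5G52310, RD29B is AT5G52300, RAB18 is AT5G66400, KIN1 is AT5G15960 and KIN2 is AT5G15970, all on chromosome 5, where RD29A spans chr5:21240717-21243644 and RD29B chr5:21237021-21239531 in TAIR10.1. COR15A is AT2G42540 and COR15B is AT2G42530, next to each other on chromosome 2, which also carries HB7 (AT2G46680). COR47 is AT1G20440 on chromosome 1 and HB12 is AT3G61890 on chromosome 3.

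Leaves were compared between the mutant line chlorella-1 and the wild type Col at 2 ages. The 4 groups were chlorella-1 at 26 d, Col at 26 d, chlorella-1 at 14 d and Col at 14 d, with 3 libraries each. No treatment is named for any group, so no library is a drought or cold sample by its label. Total RNA from which ribosomal RNA had been removed was sequenced. The labels do not say whether replicates came from separate plants, so p-values measure only the spread between these libraries, which may be technical. They also describe chlorella-1 by its name alone, and no gene called CHLORELLA is listed in the table or the annotation, so the genotype labels were not checked on a mutated gene.

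Libraries held 45120547 to 70452171 gene counts. Nuclear genes took 38.8% to 49.4% of them in chlorella-1 at 26 d, against 27.1% to 28.1% in Col at 26 d. At 14 d their share was 26.9% to 29.2% for chlorella-1, against 30.7% to 34.0% for Col. Chlorella-1 at 26 d, the group of the main comparison, thus stood apart, and its TMM scaling factors also ran wider, at 0.782 to 1.29 against 1.01 to 1.11 in Col at 26 d. When only nuclear genes were fitted, as many of the 10 genes passed in each of the 5 comparisons described here as with all genes. Leaf mesophyll markers were abundant in every library, with summed levels of 784 to 966 CPM (read counts normalised to the scaled library size) in chlorella-1 at 26 d, 4743 to 7060 CPM in Col at 26 d, 13396 to 13942 CPM in chlorella-1 at 14 d and 13695 to 16111 CPM in Col at 14 d. In whole leaves, fewer cells of a type and less RNA per cell cannot be told apart.

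As background, 2 routes lead to these genes. In the first, the hormone abscisic acid (ABA) binds its receptors, which inhibit clade A PP2C phosphatases, and SnRK2 kinases then activate bZIP factors that bind the ABA-responsive element (ABRE). In the other, CBF and DREB2 proteins bind the dehydration-responsive element (DRE), the CBF proteins mainly in the cold and DREB2A mainly in drought and heat. RD29B and RAB18 are classic genes of the ABA route, COR15A, COR15B and COR47 are classic targets of CBF proteins, and RD29A carries elements of both routes.

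The promoters show how the genes differ in these elements. The window from 250 bases before to 50 bases after each annotated gene start (300 bases, build TAIR10.1, the RefSeq annotation) was searched on both strands for the ABRE core ACGTG and the DRE core CCGAC. The ABRE core was found in 26.7% of 27442 such windows of the genome, the DRE core in 15.0%, and both in 4.71%. Among the 10 genes, 5 windows held an ABRE core, 3 held a DRE core and 2 held both, and the windows of COR15B, COR47, HB7 and HB12 held neither. The 6 windows with a core are printed because these cores tell the genes apart. Each is given 5′ to 3′ on the strand of its gene, with cores of either strand in capitals.
RD29A, chr5:21240467-21240766, plus strand: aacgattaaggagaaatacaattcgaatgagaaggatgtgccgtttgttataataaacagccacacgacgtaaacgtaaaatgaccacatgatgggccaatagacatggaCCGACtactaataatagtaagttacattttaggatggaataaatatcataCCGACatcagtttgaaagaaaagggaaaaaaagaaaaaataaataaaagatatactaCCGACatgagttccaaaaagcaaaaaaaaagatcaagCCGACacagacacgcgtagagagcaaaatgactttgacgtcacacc
RD29B, chr5:21236771-21237070, plus strand: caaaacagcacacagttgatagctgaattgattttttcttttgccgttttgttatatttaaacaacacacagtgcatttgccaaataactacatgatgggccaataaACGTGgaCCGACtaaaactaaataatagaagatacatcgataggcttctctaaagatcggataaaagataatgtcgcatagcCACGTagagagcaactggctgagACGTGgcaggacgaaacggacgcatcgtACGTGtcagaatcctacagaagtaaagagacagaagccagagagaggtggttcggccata
RAB18, chr5:26519398-26519697, minus strand: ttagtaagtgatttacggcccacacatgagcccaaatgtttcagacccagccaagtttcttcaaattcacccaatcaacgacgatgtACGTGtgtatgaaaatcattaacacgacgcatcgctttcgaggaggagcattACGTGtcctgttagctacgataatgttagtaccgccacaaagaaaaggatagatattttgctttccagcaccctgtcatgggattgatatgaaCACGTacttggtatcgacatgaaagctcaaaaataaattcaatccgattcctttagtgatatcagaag
KIN1, chr5:5209467-5209766, plus strand: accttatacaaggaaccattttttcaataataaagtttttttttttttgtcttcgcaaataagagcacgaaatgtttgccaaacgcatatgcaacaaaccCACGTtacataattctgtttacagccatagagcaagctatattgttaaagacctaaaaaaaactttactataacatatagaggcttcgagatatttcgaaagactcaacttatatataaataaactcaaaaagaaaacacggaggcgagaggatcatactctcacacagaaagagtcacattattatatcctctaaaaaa
KIN2, chr5:5211469-5211768, plus strand: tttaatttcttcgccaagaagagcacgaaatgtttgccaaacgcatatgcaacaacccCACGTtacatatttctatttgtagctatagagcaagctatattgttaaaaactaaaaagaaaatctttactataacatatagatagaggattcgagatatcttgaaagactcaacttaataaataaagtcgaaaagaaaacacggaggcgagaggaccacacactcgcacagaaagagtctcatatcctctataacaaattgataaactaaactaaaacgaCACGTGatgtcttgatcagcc
COR15A, chr2:17712281-17712580, minus strand: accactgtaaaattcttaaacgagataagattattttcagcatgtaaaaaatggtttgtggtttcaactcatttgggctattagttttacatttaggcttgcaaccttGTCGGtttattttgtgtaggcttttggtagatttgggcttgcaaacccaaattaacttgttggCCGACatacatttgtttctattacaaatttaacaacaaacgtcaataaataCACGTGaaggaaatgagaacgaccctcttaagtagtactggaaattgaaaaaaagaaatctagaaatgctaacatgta

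RD29A held 4 DRE cores and no ABRE core in this window, while its neighbour RD29B held 4 ABRE cores and 1 DRE core. RAB18 held 3 ABRE cores and KIN1 held 1. KIN2 held 3 and COR15A held 2, but 1 pair in each of these windows is the palindrome CACGTG, which is read once on each strand. COR15A also held 2 DRE cores. At least 2 ABRE cores were found in 10.7% of all windows, and at least 2 DRE cores in 2.09%. A match describes these letters only, and a core outside the window is not seen. The COR15B window is a special case, as COR15A ends 7 bases upstream of the COR15B start. Nearly all of its upstream part is therefore COR15A gene sequence.

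**Figure D1:**
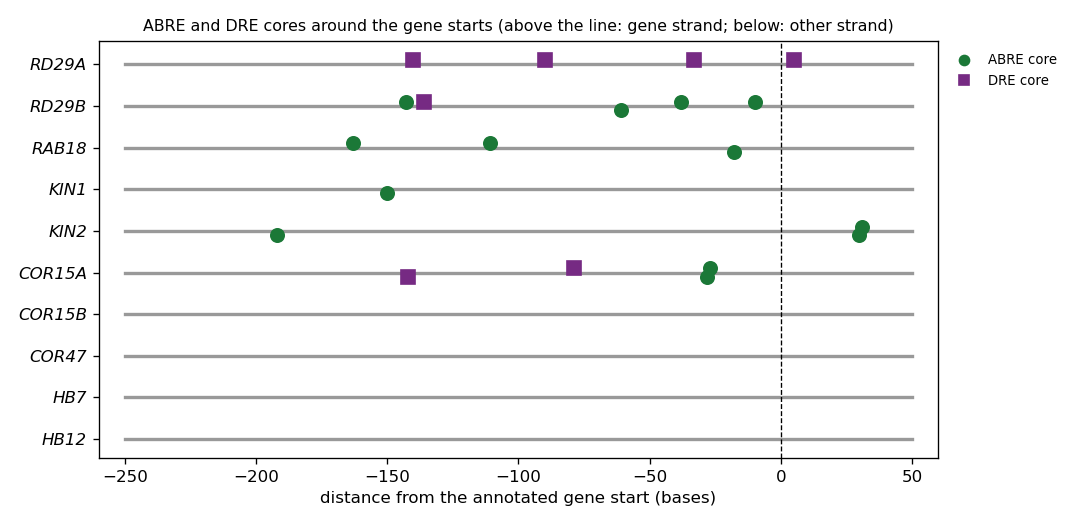
Position of each ABRE core (circles) and DRE core (squares) in bases from the annotated gene start, 1 line per gene, with cores on the strand of the gene above the line. RD29A has 4 DRE cores and RD29B has 4 ABRE cores, whereas COR15B, COR47, HB7 and HB12 have neither core in the window. The upstream part of the COR15B window is nearly all COR15A gene sequence.

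In 26 d leaves, 7 of the 10 genes were higher in chlorella-1 than in Col: RD29B, RAB18, KIN1, KIN2, COR47, HB7 and HB12. RD29A, COR15A and COR15B did not pass the test. RD29B did not pass the filter on low counts in a fit of the Col libraries alone. It entered with chlorella-1 at 26 d, the group where it is high, so its call is fixed in part by that filter. The other genes called, RAB18, KIN1, KIN2, COR47, HB7 and HB12, could also be tested in the Col libraries alone. Across all genes tested, 31.5% were higher at this age and 63.3% changed in either direction (edgeR's quasi-likelihood test, adjusted by the Benjamini-Hochberg method, threshold 0.05). The median log2 fold change was 1.53 over the 10 genes and -0.11 over all genes tested. In 5 of the 10 genes every chlorella-1 library lay above every Col library, as it did for 32.2% of all genes tested.

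HB7 and HB12, the pair of closely related homeodomain-leucine zipper factors that ABA and water deficit induce, showed the same order of group means. HB7 was at 185, 263 and 138 CPM in chlorella-1 at 26 d, against 41.1, 23.0 and 24.6 CPM in Col at 26 d. It was at 2.07, 2.62 and 3.61 CPM in chlorella-1 at 14 d, against 2.22, 1.79 and 1.72 CPM in Col at 14 d. The genotypes did not overlap at 26 d and overlapped at 14 d, and both ages were far apart in both genotypes. HB12 was at 53.0, 76.9 and 43.6 CPM in chlorella-1 at 26 d, against 17.95, 17.35 and 17.60 CPM in Col at 26 d. At 14 d it was at 5.39, 4.96 and 4.57 CPM in chlorella-1 and at 2.89, 3.20 and 3.21 CPM in Col. For HB12 the genotypes did not overlap at either age.

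The log2 fold change of chlorella-1 over Col at 26 d was 2.72 ± 0.31 for HB7 (SE, edgeR's quasi-likelihood adjusted p = 1.94e-05) and 1.71 ± 0.19 for HB12 (adjusted p = 1.45e-05). Between 14 d and 26 d, HB7 rose by 6.14 ± 0.36 on the log2 scale in chlorella-1, a 70.6-fold change, and by 3.95 ± 0.33 in Col, a 15.4-fold change. HB12 rose by 3.54 ± 0.20 in chlorella-1 and by 2.51 ± 0.19 in Col. The age changes of both genes passed in both genotypes (edgeR's quasi-likelihood adjusted p at most 1.34e-05). HB7 had the largest log2 age change of the 10 genes in chlorella-1.

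Of 15 other HD-Zip class I genes listed, 8 could be tested, and 3 of them were higher, 2 lower and 3 not passed in chlorella-1 at 26 d, with a median log2 fold change of -0.26. Over all 20398 genes tested, 6429 were higher and 6492 lower, so these counts are near the background. HB1 was higher by 1.86 ± 0.14, HB13 by 1.73 ± 0.32 and HB20 by 2.40 ± 0.74, the last at 0.998 CPM in chlorella-1 and 0.186 CPM in Col. The filter on low counts may have fixed the HB20 call in part. HB20 also overlaps AT3G01210 on the same strand over 101 bases, with 235 counts against 2439 over the 12 libraries. HB5 and HB16, named after their values were seen, were the lower ones, at -0.93 ± 0.37 and -1.08 ± 0.34.

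**Figure D2:**
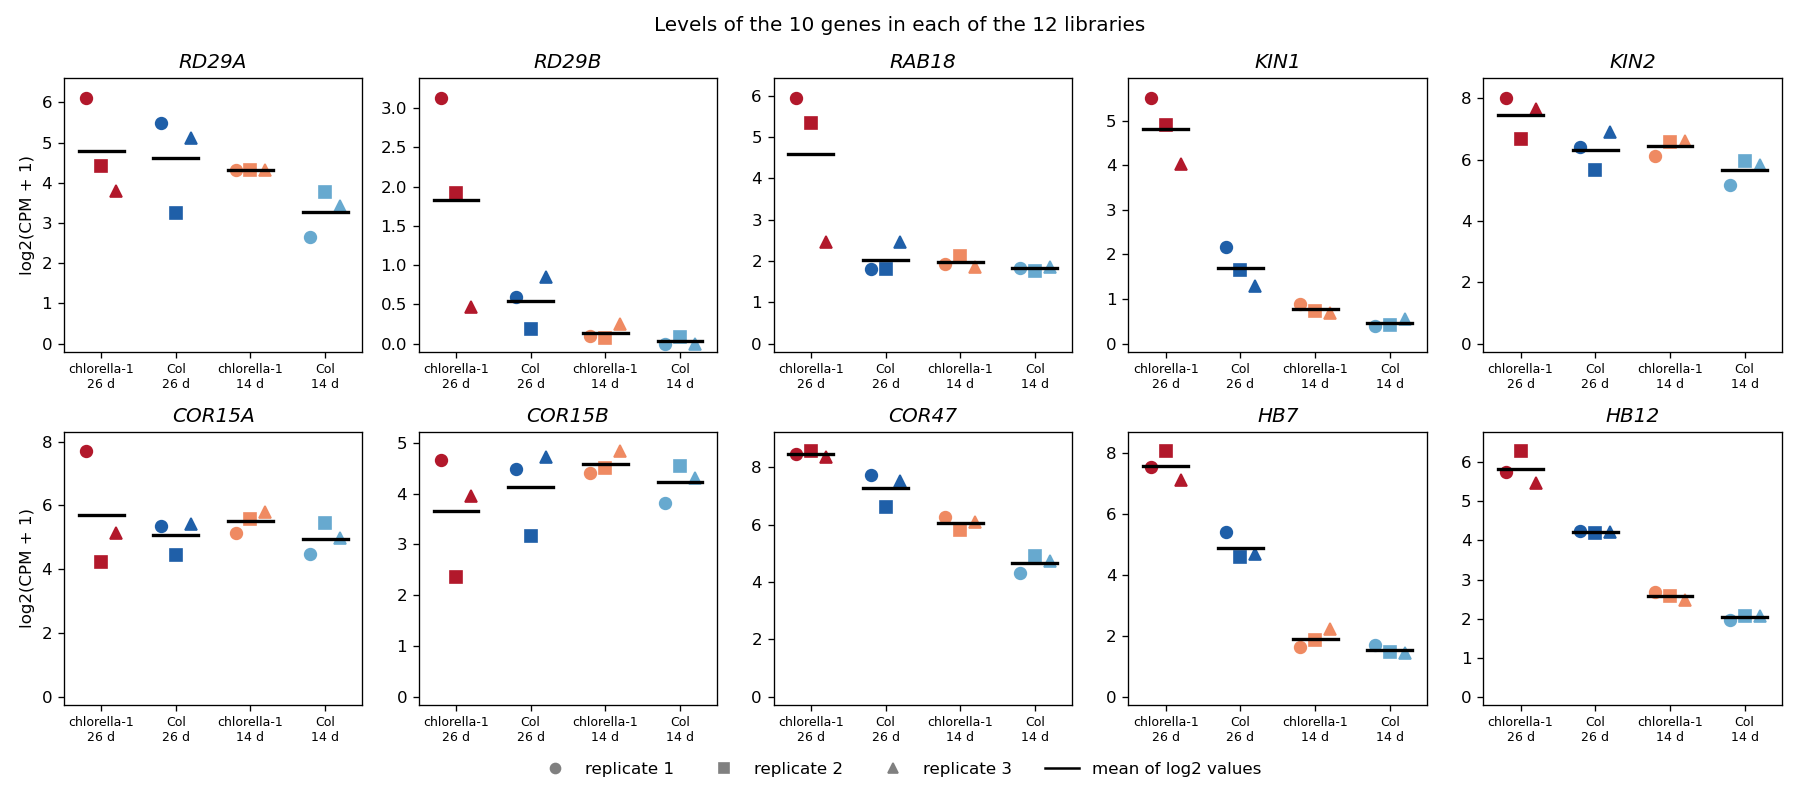
Level of each of the 10 genes in each of the 12 libraries as log2(CPM + 1), with symbols for replicates 1 to 3 and a line at the mean of the log2 values of a group. Libraries of chlorella-1 at 26 d lie apart from all others in HB7, HB12, KIN1 and COR47, and are widely spread in RD29B, RAB18 and COR15A.

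COR47 is an acidic dehydrin, one of the hydrophilic proteins that accumulate in cells losing water. It was at 350, 378 and 325 CPM in chlorella-1 at 26 d, against 213, 98.0 and 182 CPM in Col at 26 d. At 14 d it was at 75.4, 55.8 and 68.2 CPM in chlorella-1, against 19.2, 28.9 and 25.5 CPM in Col. COR47 thus stood higher in every chlorella-1 library than in every Col library of the same age, at both ages.

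The log2 fold change of COR47 for chlorella-1 over Col was 1.10 ± 0.26 at 26 d (edgeR's quasi-likelihood adjusted p = 0.00352) and 1.44 ± 0.27 at 14 d (adjusted p = 0.07). With age COR47 rose by 2.40 ± 0.27 in chlorella-1 and by 2.74 ± 0.28 in Col, and the difference between these age changes, -0.34 ± 0.37, did not pass (adjusted p = 0.484). Its chlorella-1 libraries of 26 d were close together, with an SD of 0.11 on the log2(CPM + 1) scale, beside a median of 0.31 over the genes of at least 5 CPM in that group.

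RAB18 is a basic dehydrin and a standard readout of ABA. It was at 60.7, 39.4 and 4.53 CPM in chlorella-1 at 26 d, against 2.49, 2.50 and 4.48 CPM in Col at 26 d. At 14 d it was at 2.82, 3.32 and 2.62 CPM in chlorella-1, against 2.55, 2.40 and 2.65 CPM in Col. RAB18 was therefore far above every other library in 2 chlorella-1 libraries of 26 d, while replicate 3 of that group was next to the highest Col library. The log2 fold change at 26 d was 3.46 ± 0.67 (edgeR's quasi-likelihood adjusted p = 0.000923). With age RAB18 rose by 3.58 ± 0.68 in chlorella-1, and in Col its log2 fold change was 0.32 ± 0.64 (adjusted p = 0.726). In the annotation 11 bases of RAB18 overlap PLP3b on the opposite strand.

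RD29B encodes a hydrophilic protein that is induced mainly through ABA. It was the least abundant of the genes, at 7.75, 2.77 and 0.379 CPM in chlorella-1 at 26 d, against 0.505, 0.136 and 0.804 CPM in Col at 26 d. These levels rest on 513, 121 and 22 counts in chlorella-1 at 26 d and on 33, 8 and 49 counts in Col at 26 d. At 14 d RD29B had 4, 3 and 10 counts in chlorella-1 and 0, 4 and 0 counts in Col. Replicates 1 and 2 of chlorella-1 at 26 d were thus above all Col libraries, and replicate 3 lay among them.

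The log2 fold change of RD29B at 26 d was 2.91 ± 0.94 (edgeR's quasi-likelihood adjusted p = 0.0181). Without replicate 1 of chlorella-1 at 26 d it was 1.77 and did not pass (adjusted p = 0.123), and without replicate 2 of Col at 26 d it was 2.47 (adjusted p = 0.0588). With age RD29B rose in both genotypes, by 5.16 ± 1.12 in chlorella-1 and by 4.44 ± 1.38 in Col. The filter on low counts let it in only through 26 d, and it was not tested when only the Col libraries were fitted. Its calls, also the one between genotypes at 26 d, are thus fixed in part by that filter. By limma voom the Col value was 4.66 and did not pass (adjusted p = 0.208). The Col call was also lost without replicate 1 or 3 of Col at 14 d (adjusted p = 0.0857 and 0.0764) or replicate 3 of Col at 26 d (adjusted p = 0.0723).

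RD29A lies 1185 bases downstream of RD29B on the same strand and encodes a related protein, with coding sequences 61.1% identical. It was at 67.9, 20.5 and 13.0 CPM in chlorella-1 at 26 d, against 44.0, 8.46 and 33.8 CPM in Col at 26 d. At 14 d it was at 19.1, 19.1 and 18.9 CPM in chlorella-1, against 5.26, 12.6 and 9.69 CPM in Col. RD29A levels of the genotypes overlapped at 26 d and did not overlap at 14 d. Its log2 fold change at 26 d was 0.23 ± 0.62 (edgeR's quasi-likelihood adjusted p = 0.758), and it was -0.72 without replicate 1 of chlorella-1 and -0.21 without replicate 2 of Col. With age its log2 fold change was 0.83 ± 0.63 in chlorella-1 (adjusted p = 0.253) and 1.65 ± 0.64 in Col (adjusted p = 0.0611). The Col value passed without replicate 2 of Col at 26 d, at 2.08 (adjusted p = 0.0167), and without any 1 of the chlorella-1 libraries of 26 d, which add to the shared estimate of the spread, at 1.62 to 1.65 (adjusted p = 0.0244 to 0.0498).

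KIN1 and KIN2 are neighbouring genes for small hydrophilic proteins that cold and ABA induce, set 892 bases apart with coding sequences 95.0% identical. KIN1 was at 44.6, 29.1 and 15.4 CPM in chlorella-1 at 26 d, against 3.47, 2.15 and 1.44 CPM in Col at 26 d. It was at 0.856, 0.658 and 0.608 CPM in chlorella-1 at 14 d, against 0.317, 0.341 and 0.470 CPM in Col at 14 d. The genotypes did not overlap at either age for KIN1. KIN2 was at 256, 99.8 and 200 CPM in chlorella-1 at 26 d, against 83.5, 49.7 and 119 CPM in Col at 26 d. KIN2 was at 69.1, 95.2 and 95.3 CPM in chlorella-1 at 14 d, against 35.3, 60.8 and 56.1 CPM in Col at 14 d. For KIN2 the genotypes overlapped at 26 d, where replicate 2 was the lowest library in both.

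The log2 fold change at 26 d was 3.65 ± 0.40 for KIN1, a 12.6-fold difference (edgeR's quasi-likelihood adjusted p = 1.61e-05), and 1.14 ± 0.37 for KIN2 (adjusted p = 0.0194). With age KIN1 rose by 5.39 ± 0.45 in chlorella-1 and by 2.65 ± 0.43 in Col. KIN2 rose by 1.10 ± 0.37 in chlorella-1 (adjusted p = 0.0199), and in Col its log2 fold change was 0.73 ± 0.37 (adjusted p = 0.144). In the 4-group fit the KIN2 call at 26 d was lost without replicate 1 of chlorella-1 (0.86, adjusted p = 0.0656) or replicate 2 of Col (0.86, adjusted p = 0.0726). Over all 28 alternative settings it was lost in 8, with an adjusted p of up to 0.168. The KIN2 age call in chlorella-1 was lost in that fit without replicate 1 of 26 d (0.81, adjusted p = 0.0753) or replicate 1 of 14 d (0.95, adjusted p = 0.0755). It was lost in 7 of the 28 settings. The copies share runs of up to 50 bases, so counting could have moved reads between them, and with their counts summed the age change in Col and its difference from chlorella-1 did not pass for KIN1 (0.76 with adjusted p = 0.111, and 0.54 with adjusted p = 0.4). In these sums KIN2 held 73397 counts over the 12 libraries and KIN1 held 5754, so they mostly show KIN2 and cannot decide about KIN1.

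COR15A and COR15B encode chloroplast proteins that protect membranes during freezing. They lie 7 bases apart, with coding sequences 82.8% identical. COR15A was at 207, 17.8 and 34.4 CPM in chlorella-1 at 26 d, against 40.2, 20.6 and 41.4 CPM in Col at 26 d. At 14 d COR15A was at 33.8, 47.0 and 54.3 CPM in chlorella-1, against 21.1, 42.6 and 30.4 CPM in Col. COR15A was thus high in a single library, replicate 1 of chlorella-1 at 26 d, with replicates 2 and 3 of that group below the highest Col library.

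COR15B was at 24.4, 4.12 and 14.5 CPM in chlorella-1 at 26 d, against 21.4, 7.95 and 25.6 CPM in Col at 26 d. At 14 d it was at 20.2, 21.7 and 27.6 CPM in chlorella-1, against 13.1, 22.3 and 18.7 CPM in Col. All 4 groups overlapped for COR15B. The log2 fold change at 26 d was 1.34 ± 0.71 for COR15A (edgeR's quasi-likelihood adjusted p = 0.115) and -0.35 ± 0.53 for COR15B (adjusted p = 0.582). Without replicate 1 of chlorella-1 the value of COR15A was -0.36, while without replicate 2 or 3 of chlorella-1 it passed, at 1.82 (adjusted p = 0.0181) and 1.76 (adjusted p = 0.046). COR15B overlaps the gene AT2G42520 on the opposite strand over 468 bases, and the strand setting of the counting is not given in the sources used here. Neither gene passed with age in either genotype, and leaving out libraries turned the direction of both in Col, where their values were 0.12 ± 0.69 and 0.02 ± 0.53. In chlorella-1 the age value of COR15A was 0.94 ± 0.70. It passed without replicate 2 of chlorella-1 at 26 d, at 1.42 (adjusted p = 0.0461), and was -0.78 without replicate 1. That of COR15B was -0.69 ± 0.53, and passed without replicate 1, at -1.31 (adjusted p = 0.0467).

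**Figure D3:**
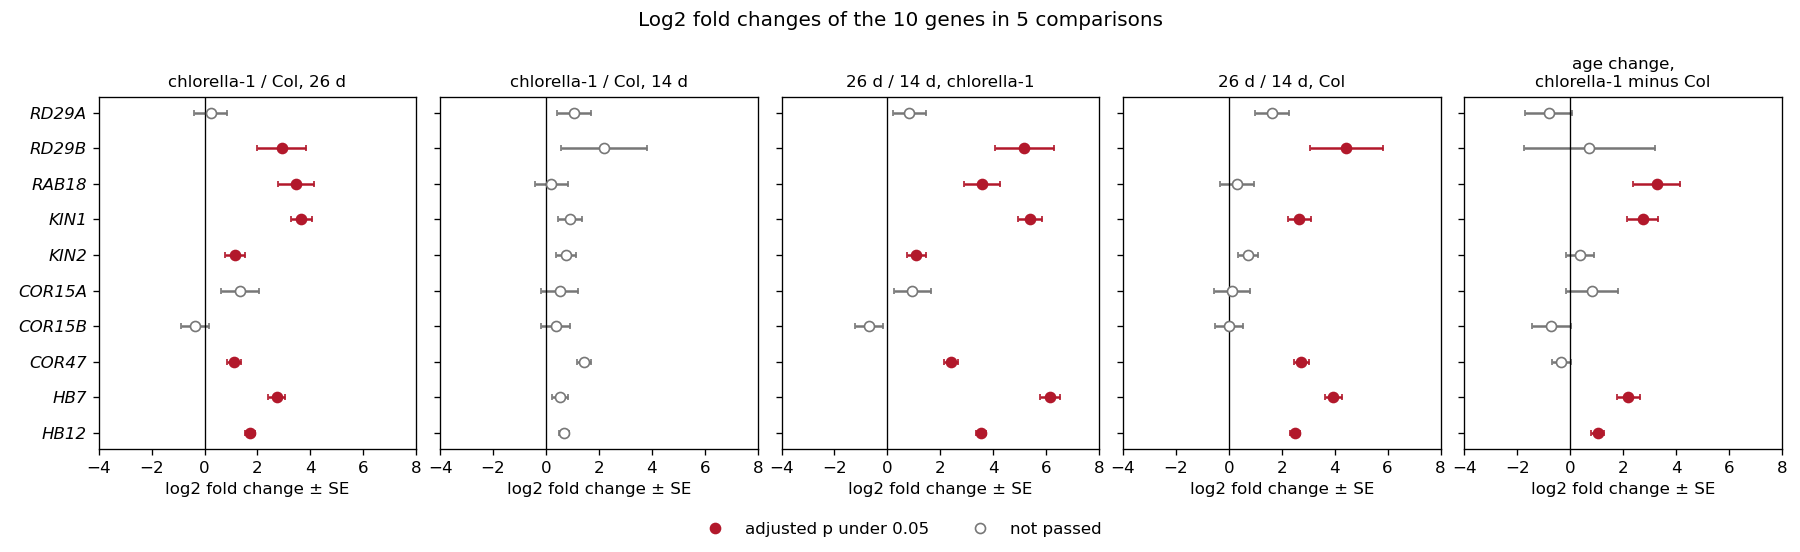
Log2 fold change with its SE for each gene in 5 comparisons, filled where the adjusted p of edgeR's quasi-likelihood test is under 0.05. HB7, HB12, KIN1 and RAB18 pass in the last panel, the difference between the age changes, and no gene passes at 14 d.

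Over the age comparisons, 7 of the 10 genes rose in chlorella-1 between 14 d and 26 d, against a background of 35.2% of genes tested that rose and 71.2% that changed. In Col 5 of the 10 genes rose, RD29B, KIN1, COR47, HB7 and HB12, against 19.3% of genes tested that rose and 39.4% that changed. RD29B passed the filter on low counts only through its 26 d libraries, so its calls with age are fixed in part by that filter, and without it the counts were 6 of 9 genes in chlorella-1 and 4 of 9 in Col. The chlorella-1 libraries did not overlap between ages for 7 genes, all with 26 d above, as for 35.8% of genes tested, and the Col libraries for 5 genes, as for 30.3%, with RD29B among them in both genotypes. The median log2 fold change of the 10 genes with age was 2.97 in chlorella-1 and 2.08 in Col, beside -0.11 and 0.01 over all genes tested. The comparisons share libraries with each other and are not independent.

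The difference between the age changes of the genotypes was tested directly. It passed for 4 of the 10 genes, all with the larger increase in chlorella-1, where 21.2% of all genes tested passed in this direction and 42.2% in either. It was 3.26 ± 0.91 for RAB18 (edgeR's quasi-likelihood adjusted p = 0.014), 2.74 ± 0.60 for KIN1 (adjusted p = 0.0039), 2.19 ± 0.42 for HB7 (adjusted p = 0.00192) and 1.03 ± 0.26 for HB12 (adjusted p = 0.00866). The same 4 genes passed whichever 1 of the 12 libraries was left out, but RAB18 did not pass by limma voom (2.66, adjusted p = 0.101). The summed counts of KIN1 and KIN2 did not pass either (0.54, adjusted p = 0.4), but most of them are KIN2 counts, so the sum cannot decide about KIN1. For RD29B it was 0.72 ± 2.48 (adjusted p = 0.856), an error too wide to place it, and the gene had 4 counts in all Col libraries of 14 d.

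In 14 d leaves no gene of the 10 passed, in a comparison where 0.162% of all genes tested passed and 9.07% had an unadjusted p under 0.05. By unadjusted p, COR47 (0.000182) and HB12 (0.00365) were under 0.05. All 10 log2 fold changes were nonetheless above 0, with a median of 0.73, beside 0 over all genes tested. In 5 genes, RD29A, KIN1, KIN2, COR47 and HB12, every chlorella-1 library lay above every Col library, as for 15.0% of genes tested. The shared fit takes its spread also from the more scattered 26 d libraries, and the effect of this on the result was not tested. In that fit COR47 passed without replicate 2 of Col at 26 d (adjusted p = 0.024) or replicate 2 of chlorella-1 at 26 d (adjusted p = 0.0342), and HB12 passed without the last of these (adjusted p = 0.0229).

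When only the 14 d libraries were fitted, 4 of 9 genes were higher in chlorella-1: COR47 (1.44, adjusted p = 0.000133), HB12 (0.68, adjusted p = 0.00314), RD29A (1.05, adjusted p = 0.00601) and KIN2 (0.77, adjusted p = 0.0125), all by edgeR's quasi-likelihood test. In that fit 6.4% of the 18589 genes tested were higher and 14.6% changed, and RD29B had too few counts to be tested. DESeq2 called 1 of the genes at 14 d, COR47 (1.44, adjusted p = 0.000129), and so did limma voom (1.45, adjusted p = 0.0405).

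The spread within groups also set the genes apart. In chlorella-1 at 26 d the SD of log2(CPM + 1) over 3 libraries was 1.86 for RAB18 and 1.80 for COR15A, larger than for 99.6% and 99.5% of the 8296 genes with a mean of at least 5 CPM in that group, whose median was 0.31. It was 0.46 for HB7, 0.41 for HB12 and 0.11 for COR47. In Col at 26 d the SD was 1.21 for RD29A, larger than for 99.6% of genes, and 0.023 for HB12, larger than for 1.68%. At 14 d RD29A had an SD of 0.0059 in chlorella-1 and 0.57 in Col.

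Replicate 1 of chlorella-1 at 26 d was the highest library of its group for 7 of the 10 genes, all but COR47, HB7 and HB12, for which replicate 2 was highest. Over all genes tested, replicate 1 was highest for 30.7% and replicate 2 for 37.3%. Replicate 3 was the lowest library for 7 of the 10 genes, all but KIN2, COR15A and COR15B, beside 31.3% of all genes. The clade A PP2C genes followed the order of HB7 and HB12, with replicate 2 highest and replicate 3 lowest in 9 of 9. In Col at 26 d replicate 2 was lowest for 8 of the 10 genes, beside 35.2% of all genes.

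**Figure D4:**
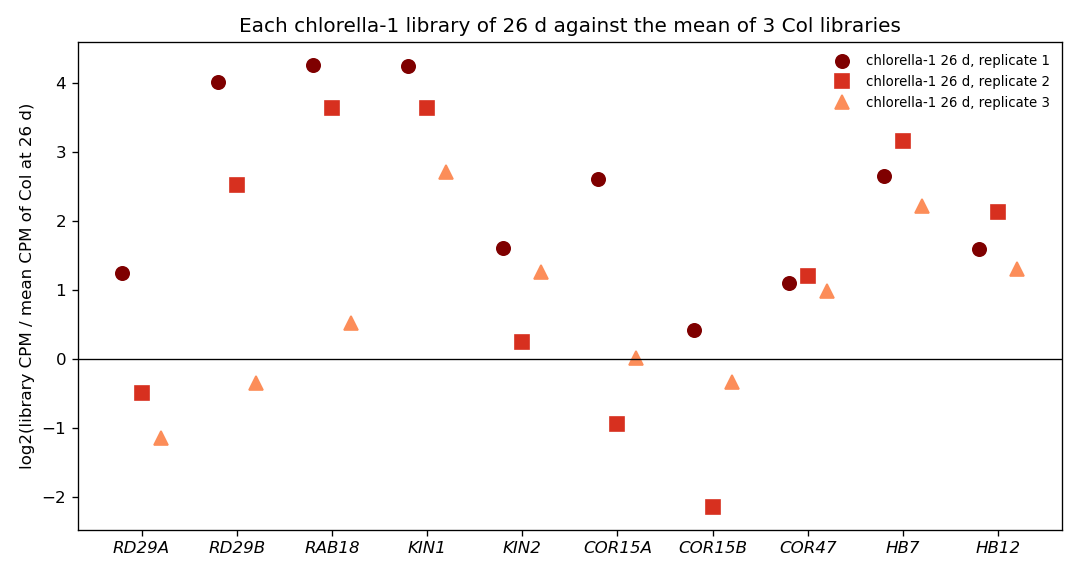
Log2 ratio of each chlorella-1 library of 26 d to the mean CPM of the 3 Col libraries of 26 d, 1 column per gene. All 3 libraries lie above 0 for RAB18, KIN1, KIN2, COR47, HB7 and HB12, while RD29A and COR15B lie above 0 only in replicate 1.

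KIN2, COR15A and COR15B also shared their low libraries across genotypes. At 26 d replicate 2 was the lowest of its group for these 3 genes in chlorella-1 and in Col, and it was also lowest for CBF1, CBF2 and CBF3 in both. Over all genes tested, replicate 2 was lowest for 43.0% in chlorella-1 and 35.2% in Col at 26 d. At 14 d replicate 1 was lowest for these 3 genes and CBF3 in both genotypes, but CBF1 and CBF2 were lowest in replicate 3 of chlorella-1. In Col at 14 d replicate 1 was also lowest for CBF1, CBF2, RD29A, KIN1, COR47 and HB12, so it is not particular to these genes. The share over all genes was not taken at 14 d. The labels do not say that a replicate number marks a shared day or tray. Across all genes the deviations of same-numbered libraries correlated at -0.198 to 0.143, and those of other-numbered libraries at -0.191 to 0.182. What the low libraries share was not tested.

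Levels were put in order per kilobase of exon, so that genes of different length can be compared. In chlorella-1 at 26 d KIN2 led with 247 ± 105 CPM per kb (SD, n = 3), followed by COR47 with 151 ± 11.5 and HB7 with 133 ± 43.0, and these 3 neighbours overlapped in their libraries. HB12 (54.9 ± 16.3), COR15A (54.6 ± 66.2), KIN1 (35.8 ± 17.6), RAB18 (32.0 ± 26.0), RD29A (12.7 ± 11.2), COR15B (9.06 ± 6.41) and RD29B (1.67 ± 1.73) came after, each overlapping the next, in CPM per kb. The step between HB7 and HB12 was the only one without overlap.

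In Col at 26 d the order of levels per kb was KIN2 (112 ± 46.1), COR47 (70.8 ± 25.6), COR15A (21.5 ± 7.39), HB7 (20.1 ± 6.80), HB12 (16.7 ± 0.288), COR15B (11.6 ± 5.81), RD29A (10.8 ± 6.87), RAB18 (2.90 ± 1.05), KIN1 (2.84 ± 1.24) and RD29B (0.222 ± 0.154). Steps without overlap lay after COR47, HB12 and KIN1. In chlorella-1 at 14 d KIN2 led with 115 ± 20.2 CPM per kb, ahead of COR47 (28.6 ± 4.27) and COR15A (28.5 ± 6.56). In Col at 14 d KIN2 led with 67.6 ± 18.1 CPM per kb, ahead of COR15A (19.8 ± 6.80), COR15B (11.4 ± 2.94) and COR47 (10.6 ± 2.14). HB7 was 8th of the 10 genes by mean level per kb in both genotypes at 14 d, at 1.88 ± 0.530 CPM per kb in chlorella-1 and 1.297 ± 0.180 CPM per kb in Col.

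The regulators of the DRE route were split at 26 d. Of 11 listed genes 10 could be tested, and 7 were higher in chlorella-1, none lower, with a median log2 fold change of 1.71. Over all genes tested 31.5% were higher and 63.3% changed in either direction, with a median of -0.11. DREB2A was higher by 5.22 ± 0.45 (edgeR's quasi-likelihood adjusted p = 3.03e-06), at 82.1, 188 and 74.0 CPM in chlorella-1 and 3.44, 2.26 and 3.53 CPM in Col. Its relative DREB2B was higher by 3.17 ± 0.31 and RAP2.1, a repressor that binds the same element, by 1.18 ± 0.20. DREB2B overlaps TBL32 on the opposite strand over 1086 bases, with 2070 counts against 1984 over the 12 libraries. The strand setting of the counting is not given, so reads of TBL32 could be among them. The 3 cold-induced CBF genes did not pass: CBF1 was at -0.87 ± 0.76, CBF2 at -0.56 ± 0.34 and CBF3 at 0.29 ± 0.70 (adjusted p = 0.332, 0.172 and 0.727). CBF3 was at 12.8, 0.435 and 6.40 CPM in chlorella-1 and at 6.47, 3.44 and 6.24 CPM in Col, and was -0.63 without replicate 1 of chlorella-1.

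In the ABA route, the clade A PP2C genes encode phosphatases that restrain ABA signalling. Beside 31.5% of all genes tested, all 9 were higher in chlorella-1 at 26 d. Of these, AHG1 and HAI3 passed the filter on low counts only through chlorella-1 at 26 d, where AHG1 had 46, 147 and 12 counts against none in Col, so their calls are fixed in part by that filter. The other 7 were higher by 2.26 to 4.50. PP2CA was at 560, 856 and 308 CPM in chlorella-1 and 59.0, 35.5 and 61.5 CPM in Col, a log2 fold change of 3.46 ± 0.35, and HAB1 and HAB2 were higher by 2.69 ± 0.28 and 2.26 ± 0.23. Of 9 ABA receptor genes 5 were higher, among them PYL9 by 1.99 ± 0.17, PYL7 by 1.48 ± 0.15 and PYR1 by 0.66 ± 0.14, and 2, PYL4 and PYL8, named after their values were seen, were lower (-2.31 ± 0.55 and -0.81 ± 0.27). PYL2, also among the higher ones and named for its low level, was at 0.0211 CPM in Col. Of the 26 d groups only chlorella-1 could bring it past the filter on low counts, so its call is fixed in part by that filter. Of the 3 SnRK2 kinases OST1, the kinase that closes stomata, was higher by 1.27 ± 0.16, while SNRK2.2 was at 0.32 ± 0.14 and SNRK2.3 at 0.48 ± 0.23 and did not pass, although they did when only nuclear genes were fitted (edgeR's quasi-likelihood adjusted p = 0.0328 and 0.0499). Among 6 bZIP factors GBF3 was higher by 1.42 ± 0.26, and ABI5 (1.50 ± 0.71), ABF2 (0.51 ± 0.30) and the other 3 did not pass. For the kinases and the bZIP factors the share that was higher is thus near or below that of all genes tested. On the opposite strand GBF3 overlaps TRIP-1 over 246 bases and PYL7 overlaps AT4G01030 over 571 bases, and the strand setting of the counting is not given.

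Genes of ABA synthesis and breakdown were higher in 6 of 9 cases, beside 31.5% of all genes tested, with a median of 1.87. NCED3, the rate-limiting enzyme of ABA synthesis under drought, was at 168, 339 and 116 CPM in chlorella-1 and 16.7, 7.61 and 25.4 CPM in Col at 26 d, a log2 fold change of 3.65 ± 0.46 (edgeR's quasi-likelihood adjusted p = 4.44e-05). AAO3 and ABA3, which act in the last step, were higher by 2.84 ± 0.27 and 2.49 ± 0.27. The remaining 3 of the 6 encode enzymes that break ABA down: CYP707A1 was higher by 2.11 ± 0.61, CYP707A3 by 1.87 ± 0.45 and CYP707A4 by 1.19 ± 0.21, while CYP707A2 was at -0.25 ± 0.53 and did not pass. These breakdown genes were low, at 6.71, 1.77 and 7.12 CPM on average for the 3 higher ones in chlorella-1 and 1.55, 0.481 and 3.12 CPM in Col. ABA itself was not measured.

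Of 14 other dehydrin, COR and LEA genes 7 were higher in chlorella-1 at 26 d, 2 were lower and 5 did not pass, with a median of 0.73. The dehydrin LTI30 was higher by 3.37 ± 0.35, LEA14 by 2.12 ± 0.19 and the dehydrin ERD14 by 1.37 ± 0.18. XERO1 and LEA7, also among the higher ones and named for their low levels, were at 0.137 and 0.263 CPM in Col. The filter on low counts may have fixed the XERO1 call in part. The lower ones, named after their values were seen, were HIRD11 (-0.97 ± 0.24) and COR413IM2 (-0.85 ± 0.26). Of 9 other drought-responsive genes 5 were higher and none lower, with a median of 2.57, led by the caleosin RD20 (4.17 ± 0.41, at 2166 CPM in chlorella-1 and 120 CPM in Col) and the NAC factors NAC019 (4.35 ± 0.36) and RD26 (3.07 ± 0.32). Over all genes tested the median was -0.11 and 31.5% were higher. The genes of these lists were picked for their known place in the routes, with earlier results of these data known, and the counts are descriptions.

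**Figure D5:**
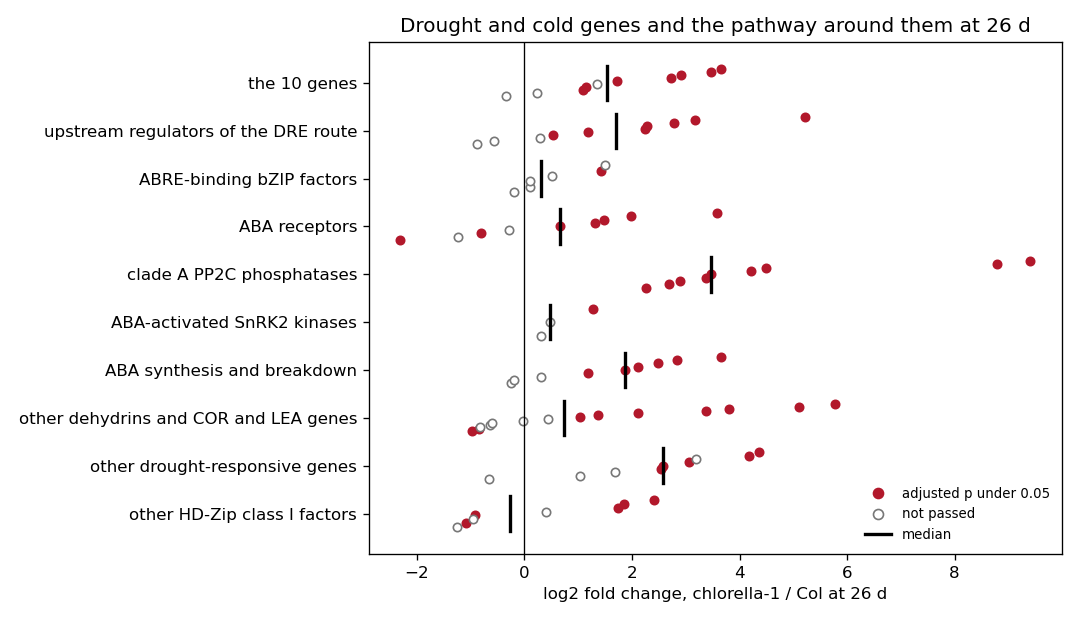
Log2 fold change of chlorella-1 over Col at 26 d for each gene of the 10 and of 9 lists around them, filled where the adjusted p of edgeR's quasi-likelihood test is under 0.05, with a bar at the median. The 7 PP2C genes other than AHG1 and HAI3 lie between 2.26 and 4.50, while AHG1 is drawn at a fitted value against libraries without a count, and the bZIP factors lie between -0.19 and 1.50.

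Markers of other cells and states moved beside these genes at 26 d. All 4 mesophyll markers were lower in chlorella-1, beside 6492 of the 20398 genes tested. The 5 guard cell markers had a summed level of 48.3 to 96.2 CPM in chlorella-1 and 7.01 to 10.3 CPM in Col. Of the 5, 4 were higher, beside 31.5% of all genes tested. As background, OST1 and the marker HT1 are both kinases known to act in guard cells. The 4 vascular markers summed to 53.2 to 121 CPM in chlorella-1 and 59.7 to 80.7 CPM in Col, but nearly all of this was SUC2, at 92.5 CPM in chlorella-1 and 69.1 CPM in Col. Of the 4, SEOR1 was lower (-1.43 ± 0.43, edgeR's quasi-likelihood adjusted p = 0.0121), and SUC2, XCP1 and IRX3 did not pass. The 4 pollen and anther markers summed to 12.6 to 52.9 CPM in chlorella-1 and 0 to 0.255 CPM in Col, and 3 of them passed the filter on low counts, only through chlorella-1 at 26 d where they were high, so they get no count of calls. Of 6 seed markers, 5 had no count in any library of chlorella-1 or Col at 26 d, and EM6, itself an ABA-responsive LEA gene, was at 0.650, 4.74 and 0.724 CPM in chlorella-1 and 0.0459, 0 and 0 CPM in Col. Of the 4 senescence genes all were higher in chlorella-1, including NYE1 (4.61 ± 0.22), ORE1 (3.24 ± 0.35) and NAP (1.88 ± 0.25). The part of these cells and of leaf senescence in the results above was not tested.

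The gene with the pattern most like each of the 10 was sought among 9043 candidates, all outside the 10 and with a mean of at least 5 CPM, as the smallest root mean square difference of centred log2(CPM + 1) over the 12 libraries. For HB12 it was the hexose transporter gene MSS1 (STP13), at a difference of 0.093, where HB12 itself deviated from its mean by 1.50. For COR47 it was HFR1 (0.23), a bHLH factor of light signalling, for HB7 the factor NAC047 (0.23), and for KIN1 the gene AT1G54890 (0.24), annotated as a LEA-like protein. For COR15A (0.54) and COR15B (0.35) it was CBF3, listed as DREB1A. COR15A itself deviated by 0.86 and COR15B by 0.70, so these are loose likenesses. For the others it was PIF3 for RD29B (0.32, own deviation 0.91), AT1G72510 for KIN2 (0.35, own deviation 0.77), COL9 for RAB18 (0.40, own deviation 1.39) and PWD for RD29A (0.51, own deviation 0.94). The added 1 CPM flattens the changes of genes at low levels, so the RD29B match is not one in fold change. With age in Col RD29B rose 21.8-fold, while PIF3 was at 4.23 CPM at 14 d and 6.13 CPM at 26 d. Within the 10 genes, COR47 and HB12 were the closest pair, at 0.46, and HB7 stood farthest from its nearest gene, KIN1, at 1.0.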

How the data were processed

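Read counts per gene for 12 libraries were used as deposited, and were whole numbers. The tools listed in the submitters' processing notes are HTSeq, STAR, DESeq2, StringTie and HISAT2, with the build TAIR10. Their versions, roles and the strand setting are not given in the sources used here. The other 12 per-sample columns (FPKM) were not used. Left out were 50 rows that name no gene (0.0771% to 0.2162% of counts). Loci and coordinates came from the TAIR10.1 annotation, in which all 38288 gene IDs were found; RD29A and RD29B are LTI78 and LTI65 in the table.

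Counts were fitted with edgeR 4.0.16 in R 4.3.3 (filterByExpr, TMM scaling, 1 quasi-likelihood model of the 4 groups; two-sided tests; Benjamini-Hochberg over 20398 genes within each of 5 comparisons; threshold 0.05). A standard error is the log2 fold change over the root of its F statistic, and CPM use TMM-scaled library sizes. The steps were tested on simulated data. Alternatives were DESeq2 1.42.0, limma voom 3.58.1, other scalings and filters, fits of only the groups compared, a replicate block, libraries left out, and summed counts of near-identical copies. Promoters were read with Python 3.11.15, and coding sequences of copies were aligned with Biopython 1.88.

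Named were the 10 genes, up to 3 genes per list with the smallest p at 26 d, CBF1 to CBF3, DREB2A, NCED3, and the gene nearest in pattern to each of the 10. The members and lists were chosen with earlier results of these data known.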

Additional observations from a re-analysis of the deposited data

Results flagged for a closer look

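Between 14 d and 26 d, 4 of the 10 genes rose more in chlorella-1 than in Col by a test of that difference itself. The difference between the age changes on the log2 scale was 3.26 for RAB18, 2.74 for KIN1, 2.19 for HB7 and 1.03 for HB12 (edgeR's quasi-likelihood adjusted p = 0.014, 0.0039, 0.00192 and 0.00866). RAB18 was high in 2 of the 3 chlorella-1 libraries of 26 d. Its difference did not pass by limma voom (2.66, adjusted p = 0.101). That of the summed counts of KIN1 and KIN2 did not pass (0.54, adjusted p = 0.4), but most of these are KIN2 counts, so the sum cannot decide about KIN1.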

How the results depend on the processing

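At 14 d, where the 4-group fit called none of the 10 genes and 33 of all genes, DESeq2 called 1 and 426, limma voom called 1 of the 10, the fit of only the groups compared 4 and 2713, the replicate block 11 of all genes, and the replicate block with only the groups compared 5 and 2300. Leaving out single libraries gave 0 to 2 of the 10 and 5 to 232 genes in the 4-group fit, and 3 to 6 and 1518 to 2349 genes with only the groups compared. The low count at 14 d thus depends on the fit, and the cause was not tested. At 26 d leaving out a library gave 5 to 8 of the 10 and 11880 to 13152 of all genes in the 4-group fit, beside 7 and 12921 with all libraries. With only the groups compared it gave 4 to 6 and 7083 to 10420, beside 6 and 9888 with all libraries. There COR47 did not pass without replicate 3 of Col (1.17, edgeR's quasi-likelihood adjusted p = 0.0576), nor RAB18 without replicate 1 of Col (3.29, adjusted p = 0.0506). RD29B reached an adjusted p of 0.187 without replicate 1 of chlorella-1 (1.70).

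Values that turned sign had not passed. With copies summed, COR15B was 0.94 at 26 d, 0.56 with age in chlorella-1 and 0.48 in the difference of age changes. With age in Col it was -0.11 by limma voom, -0.18 with the replicate block and -0.032 with the block and only the groups compared, and COR15A was -0.039 with the block. CBF3 at 26 d was -0.44 by limma voom and -0.44 with the block and only the groups compared. The difference of age changes of RD29B was -0.20 by limma voom.

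Leaving out single libraries, in the 4-group fit or with only the groups compared, also turned the sign of some values. At 26 d these ran from -0.78 to 0.68 for RD29A, from -0.38 to 1.83 for COR15A, from -0.97 to 0.094 for COR15B and from -0.64 to 0.84 for CBF3. With age in chlorella-1 RD29A ran from -0.15 to 1.27 and COR15A from -0.78 to 1.44. With age in Col COR15A ran from -0.10 to 0.40 and COR15B from -0.25 to 0.38. The difference of age changes ran from -0.88 to 1.302 for COR15A and from -2.70 to 1.44 for RD29B. The lowest value came without replicate 1 of chlorella-1 at 26 d for all of these at 26 d and with age in chlorella-1, and for COR15A in the difference of age changes. For RD29B in that difference it came without replicate 2 of Col at 14 d.

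Same-numbered libraries correlated at -0.198 to 0.143, and 4 of 18 pairs were over 0.1. Other-numbered libraries correlated at -0.191 to 0.182, and 5 of 36 pairs were over 0.1. A correlation over all genes cannot show whether a number marks a shared day or tray for some genes, which was not tested. The block ended the call of RD29B at 26 d (2.79, adjusted p = 0.051), and with only the groups compared also that of RAB18 (3.07, adjusted p = 0.066). KIN2 at 26 d missed the threshold in the fit of only the groups compared (1.15, adjusted p = 0.0578), as did RD29B by limma voom (2.38, adjusted p = 0.11; with age in Col 4.66, adjusted p = 0.208), and limma voom missed it for RAB18 in the difference of age changes (2.66, adjusted p = 0.101). DESeq2 passed COR15A at 26 d (1.43, adjusted p = 0.0454) and RD29A with age in Col (1.63, adjusted p = 0.0198), and the fit of only the groups compared passed the RD29A value too (1.69, adjusted p = 0.0312). DESeq2 size factors moved the median of all genes at 26 d to 0.02, and every sign of the 10 genes held.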
